A study of Mus musculus with 12 samples.

Results

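The interferon-stimulated genes are the transcripts that a cell makes more of when an interferon binds its surface. The set described here is a list of 42 gene symbols, chosen by name with earlier results of these data known, and 41 of them were measured among 19505 genes in all. The exception is Ifi44, whose symbol is not in the annotation table used. Each of the 41 genes had 1 probe set (the group of array probes that reports a transcript).

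RNA came from dissected adrenal medulla of 12 male C57Bl6 mice in 4 groups of 3 animals, named here by colonization state and injection. Colonized mice had a normal gut microbiota and germ-free mice were sterile. After a 3 h fast with free access to water, the animals received an intraperitoneal injection of human insulin at 2 IU/kg or the same volume of saline, and were killed 90 min later. Insulin lowers blood glucose, and the study compared this response between the 2 colonization states. The labels name no engineered allele, all groups share the strain, sex, fast and route of injection, and the labels number the animals 1 to 12 with no pairing. Each array holds 1 animal, and with 3 arrays to a group every value has limited precision.

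Interferons are secreted proteins made when receptors in or on a cell detect foreign nucleic acid or other microbial products. They bind receptors on the cell surface and signal through Janus kinases to transcription factors in the nucleus. These switch on genes that degrade viral RNA, block its translation, tag proteins with ISG15 or trap virions at the membrane. Many tissues keep a low level of these transcripts without infection, and the gut microbiota is known to help set that level in immune cells.

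Many interferon-stimulated genes carry elements in their promoters through which the pathway acts. The promoters of 5 members are printed because the results turn on them: Irf7, Ifit1, Trim30a and Bst2, which differed between colonization states after insulin, and Igtp, the GTPase gene with the largest difference between colonization states after saline. The sequences are from RefSeq on build GRCm38.p6, cover bases -160 to -1 before the annotated gene start, and read 5′ to 3′ on the gene's strand. Capitals show every match on either strand to the core of the interferon-stimulated response element, which reads GAAA, any 2 bases and GAAA. Irf7 lies on the minus strand at chr7:141266425-141266584, Ifit1 on the plus strand at chr19:34640729-34640888, Trim30a on the minus strand at chr7:104465194-104465353, Bst2 on the minus strand at chr8:71537473-71537632 and Igtp on the plus strand at chr11:58199396-58199555.
Irf7: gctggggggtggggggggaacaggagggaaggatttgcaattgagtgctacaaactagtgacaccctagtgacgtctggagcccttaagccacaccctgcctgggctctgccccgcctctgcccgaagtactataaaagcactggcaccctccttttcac
Ifit1: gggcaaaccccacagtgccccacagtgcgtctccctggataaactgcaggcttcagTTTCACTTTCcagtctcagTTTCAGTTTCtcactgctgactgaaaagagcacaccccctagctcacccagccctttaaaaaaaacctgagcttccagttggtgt
Trim30a: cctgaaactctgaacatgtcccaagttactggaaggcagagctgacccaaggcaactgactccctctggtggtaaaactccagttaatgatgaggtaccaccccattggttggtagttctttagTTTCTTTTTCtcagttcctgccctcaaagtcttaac
Bst2: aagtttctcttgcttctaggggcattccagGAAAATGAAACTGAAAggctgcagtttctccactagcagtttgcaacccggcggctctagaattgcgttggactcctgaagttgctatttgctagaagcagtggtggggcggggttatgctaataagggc
Igtp: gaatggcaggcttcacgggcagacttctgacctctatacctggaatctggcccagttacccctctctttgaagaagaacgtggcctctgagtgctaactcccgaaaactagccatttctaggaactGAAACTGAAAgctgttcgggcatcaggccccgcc

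The Ifit1 stretch holds 2 matches, at -104 to -95 and at -85 to -76, both read from the opposite strand. Bst2 holds an overlapping pair, at -130 to -121 and at -124 to -115. Trim30a has 1 match at -36 to -27 and Igtp has 1 at -34 to -25. In a second RefSeq entry for Trim30a, not printed, the same letters lie at 3 to 12, after the start. The Irf7 stretch has none, which says only that these letters are not in this window. A second motif, TTCNNNGAA, the form of the gamma-activated site, reads the same on both strands and was found in Bst2 at -136 to -128, where it overlaps the first response element core, and in Igtp at -45 to -37. Over the full window of 300 bases, from 250 before to 50 after the start, 31 of the 41 members had a RefSeq promoter entry. Of these, 6 had 2 entries, and a match in either was counted. The response element core occurred in 18 of these 31 (58.1%) and in 3.99% of 27025 genes with an entry. The longer form, with a C after the second GAAA, occurred in 14 of 31 (45.2%) against 0.944% of all, and TTCNNNGAA in 8 of 31 (25.8%) against 9.55%. These matches describe the letters of the promoters and not binding.

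The deposited values are on a log2 scale, on which a difference of 1 is a factor of 2. They are compared here between arrays for 1 gene and not between genes, although whether all 12 arrays were normalized together was not given. Of the 41 members, 36 were above the array's median of negative control probe rows on all 12 arrays. Those rows should report no transcript, and their median was 4.75 on the colonized arrays (4.70 to 4.83) and 5.42 on the germ-free arrays (5.30 to 5.54). Members that did not clear it on every array were Oas3 (0 of 12 arrays), Oasl1 (1), Mx1 (4), Isg15 (8) and Trim21 (11), so differences in these 5 genes lie near the array's background. The 95th percentile of the negative control rows' mean levels was 7.71, and 19 of the 41 members had a mean under it, among them Ifit1, Trim30a, Trim21 and Oas2, which are called below. Medullary chromaffin markers had a mean of 9.78 to 11.3 and adrenal cortex markers one of 12.5 to 13.0 on the 12 arrays, both above the negative control medians. Cortex RNA was thus present in the dissected medulla. Of 8 cortex markers, 8 lay above 0 for insulin in colonized mice and 3 in germ-free mice. For germ-free against colonized mice 7 did after saline, with 1 called, and 4 after insulin. The part of cortex RNA in the members' values was not tested. Markers of other tissues stood apart on some arrays. Intestinal epithelium markers averaged 7.39 to 9.34 on the 3 germ-free saline arrays and 4.64 to 4.99 on the other 9. Hepatocyte markers were highest on colonized saline array 2 (10.7) and germ-free saline array 7 (10.1). Their mean was 6.47 to 8.97 on the other germ-free arrays and 7.39 on colonized saline array 3. It was 5.61 on colonized saline array 1 and 5.76 to 5.83 on the colonized insulin arrays. Adipocyte markers differed between groups as given with the results. Colonized saline array 2 and germ-free saline array 7 are therefore left out together in an alternative chosen after seeing the data.

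**Figure D1:**
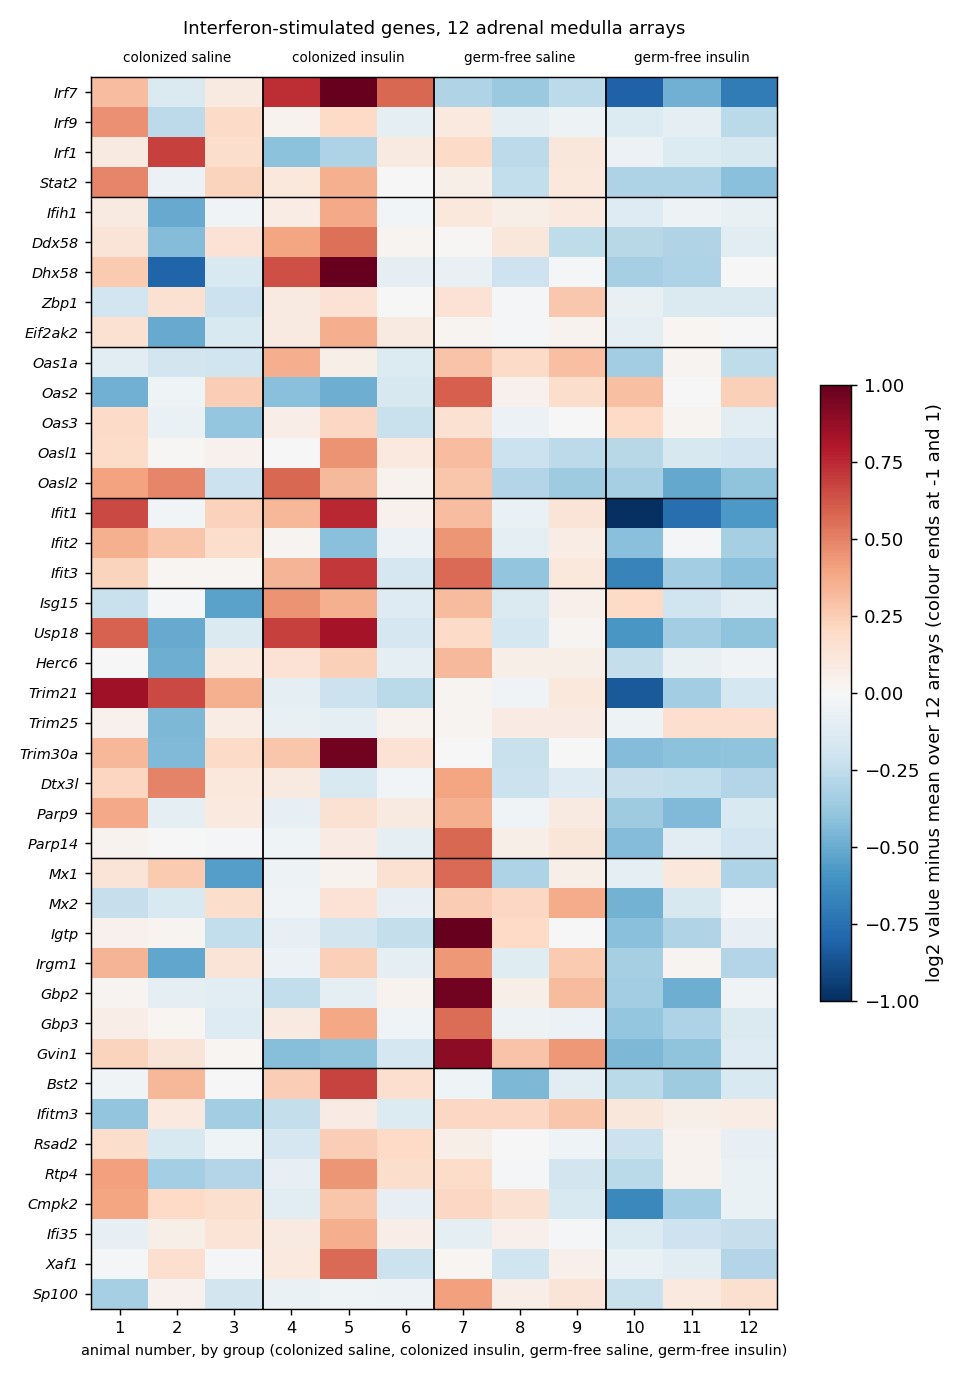
Log2 value of each of the 41 members minus its mean over the 12 arrays, with genes grouped by role in rows and animals 1 to 12 in columns; the colour scale ends at -1 and 1. Germ-free insulin arrays are blue for most genes, colonized insulin array 5 is the highest array for 16 genes and germ-free saline array 7 for 11.

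The group with the least of these transcripts was the germ-free group given insulin. Of the 41 members, 29 had their lowest group mean there, against 27.1% of all genes. The highest group mean fell in the colonized insulin group for 17 members, in the germ-free saline group for 15, in the colonized saline group for 7 and in the germ-free insulin group for 2. Averaged over the 41 genes, the level was 7.27 ± 0.06 (SD, n = 3) in germ-free mice given insulin and 7.58 ± 0.17 in those given saline, against 7.60 ± 0.14 in colonized mice given insulin and 7.51 ± 0.11 in those given saline. The 3 germ-free insulin arrays, at 7.20, 7.30 and 7.31, lay below the other 9, which ran from 7.43 to 7.77. Single animals carried much of the upper range, since colonized insulin animal 5 had the highest value of 16 members and germ-free saline animal 7 that of 11.

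After insulin, germ-free mice had less Irf7, Ifit1, Trim30a and Bst2 RNA than colonized mice, the transcripts of an interferon transcription factor, an antiviral RNA-binding protein, a TRIM protein and a virion tether. These 4 of 41 members (9.76%) were lower at an adjusted p under 0.05 in limma and 0 were higher. Of all 19572 probe sets, 5.15% were called lower, 2.62% higher and 7.77% in all, so the members' share of calls was near that of all probe sets. The change in Irf7 was -1.54 ± 0.18 (SE), that in Ifit1 -1.16 ± 0.21, that in Trim30a -0.88 ± 0.22 and that in Bst2 -0.62 ± 0.16. The differences of 34 members lay below 0, with a median of -0.23 against -0.03 over all genes, of which 55.5% lay below 0. In 18 members (43.9%) every germ-free insulin array was below every colonized insulin array, and in 1, Oas2, above, where the groups of 19.8% of all probe sets were separate in the lower direction and 12% in the higher. At an unadjusted p under 0.05, 15 members were lower and 1 higher, beside 22.5% of all probe sets in either direction.

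The calls moved with single animals. Irf7 and Ifit1 were called with any of the 12 arrays left out, and they were the 2 calls left without colonized insulin animal 4 or 5, or germ-free insulin animal 10, 11 or 12. The count was 9 without colonized insulin animal 6, 9 without colonized saline animal 2, 6 without colonized saline animal 1 and 3, with Bst2 lost, without germ-free saline animal 9. Without both saline arrays that stood apart it was 10. The shares of all probe sets called in these fits are not given here, so the counts are not set against the background. Adipocyte markers moved with this comparison: 10 of 10 were higher in germ-free insulin animals and 7 were called, and their mean ran from 10.3 to 10.8 on those arrays against 6.34 to 8.76 on the colonized insulin arrays. With that mean as a covariate, 0 of 41 members were called, as were 0.189% of all probe sets, and 4 members were lower at an unadjusted p under 0.05. The difference was then -1.16 for Irf7, -0.65 for Ifit1 (adjusted p = 0.292 in limma), -0.37 for Trim30a (adjusted p = 0.595) and -0.72 for Bst2 (adjusted p = 0.232). Chromaffin cell markers moved the other way, with 11 of 11 lower in germ-free insulin animals and 9 called, and a mean of 9.78 to 10.3 against 10.8 to 11.3. In dissected tissue, fewer cells of a type and less RNA per cell cannot be told apart. Of 8 hepatocyte markers, 8 lay above 0 in this comparison, with a median of 1.27 and 1 called. The part of chromaffin or hepatocyte content in the members' values was not tested. The adipocyte marker mean did not overlap between the compared groups, so its covariate cannot tell adipose content and colonization state apart here.

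Gvin1, a very large interferon-inducible GTPase, was lower after insulin than after saline in germ-free mice, with a difference of -0.86 ± 0.16 (SE; adjusted p = 0.0329 in limma). It was the 1 member called among 41, where 0.439% of all probe sets were called and 0.296% lower. Most other members were also below their saline level, 39 of 41 with a median of -0.26 against 0.006 over all genes, of which 48.3% lay below 0. In 20 members (48.8%) the insulin arrays were all below the saline arrays and in 0 above, beside 10.1% of all probe sets lower and 9.55% higher. These 20 were Irf7, Stat2, Ifih1, Zbp1, Oas1a, Ifit1, Usp18, Herc6, Trim21, Trim30a, Dtx3l, Parp9, Parp14, Mx2, Igtp, Gbp2, Gbp3, Gvin1, Ifitm3 and Ifi35. At an unadjusted p under 0.05, 13 members were lower and 0 higher (8.31% of all probe sets in either direction). The 39 below 0 stayed 39 under a second quantile normalization and both kinds of median centring. Without germ-free saline animal 7 they were 33, with a median of -0.17, and Gvin1 was not called. Its call was also lost without colonized insulin animal 4 or 5, germ-free saline animal 9, or germ-free insulin animal 10, 11 or 12, and Ifit1 joined it without colonized saline animal 2. All 10 intestinal epithelium markers were lower in the germ-free insulin than in the germ-free saline animals, 9 of them called, and all 11 chromaffin markers too, 3 called. The part of either in the members' difference was not tested.

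For insulin in colonized mice 0 of the 41 members were called at an adjusted p under 0.05 in limma, where 0.153% of all probe sets were called. Differences were spread around 0, with 28 members above it and a median of 0.10 against 0.0047 over all genes. At an unadjusted p under 0.05, 4 were higher and 4 lower (11.8% of all probe sets). The groups were separate for Irf7 in the higher direction, where 7.53% of all probe sets were, and for Ifit2, Trim21, Dtx3l and Gvin1 in the lower, where 6.55% were. The 3 largest differences were Trim21 at -0.82 ± 0.17 (SE; adjusted p = 0.0944), Irf7 at 0.80 ± 0.18 (SE; adjusted p = 0.136) and Dhx58 at 0.78 ± 0.29 (SE; adjusted p = 0.342).

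**Figure D2:**
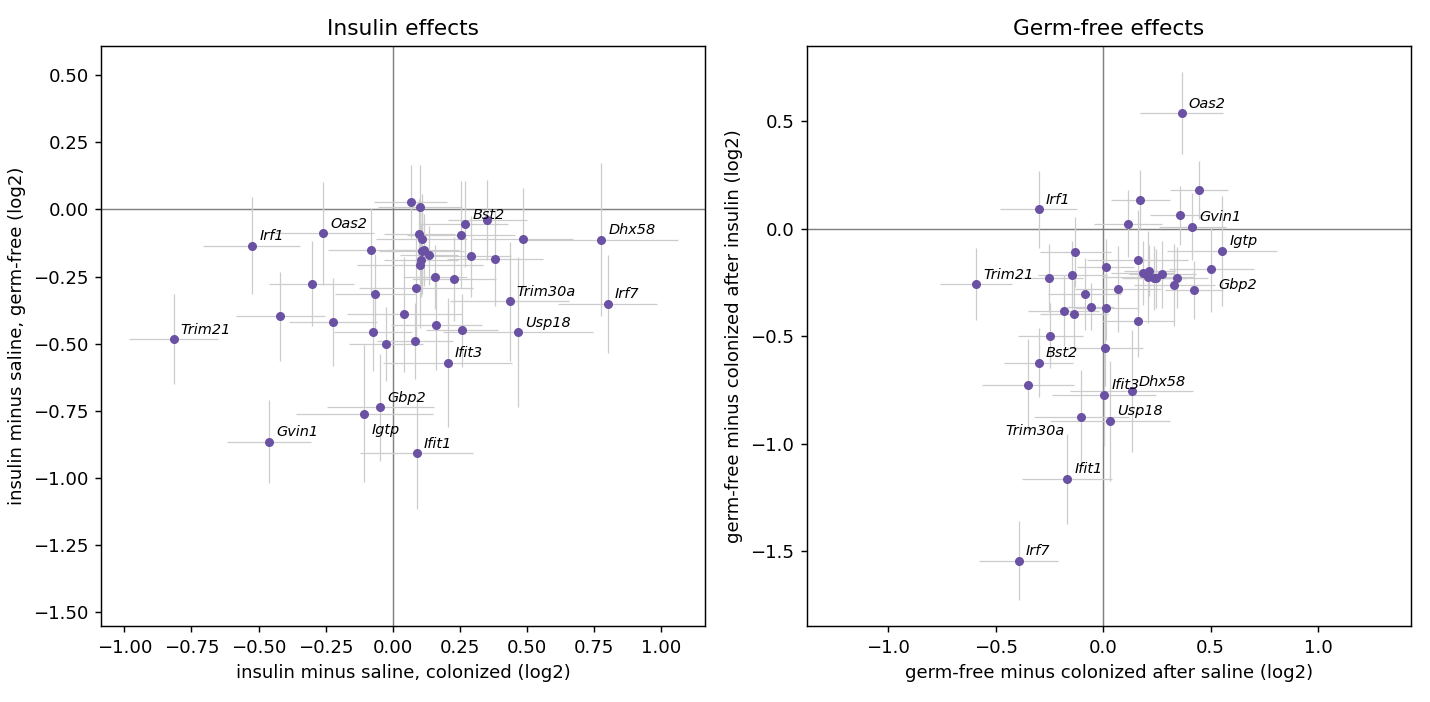
Left, the insulin difference of each of the 41 members in germ-free mice (vertical axis, log2) against that in colonized mice (horizontal axis, log2); right, the germ-free minus colonized difference after insulin against that after saline. Points are fitted differences and grey lines standard errors; 39 points lie below 0 on the left vertical axis, and Irf7 and Ifit1 lie lowest on the right.

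When the insulin effects of the 2 colonization states were tested against each other, 0 of the 41 members passed an adjusted p under 0.05 in limma, and 7 of 19572 probe sets (0.0358%) did. The fitted difference of effects, germ-free minus colonized, was below 0 in 36 members, with a median of -0.38 against -0.0034 over all genes, of which 50.4% lay below 0. It had an unadjusted p under 0.05 in 16 members, all lower, beside 9.97% of all probe sets in either direction. Irf7 had the most negative value, -1.15 ± 0.26 (SE; adjusted p = 0.158), followed by Ifit1, -0.996 ± 0.30 (SE; adjusted p = 0.306), and Usp18, -0.92 ± 0.40 (SE; adjusted p = 0.469). In 26 members (63.4%) the insulin difference was above 0 in colonized and below 0 in germ-free mice, as in 24.8% of all genes. It was below 0 in both for 13 members and above 0 in both for 2. With the adipocyte marker mean as a covariate, which ran from 6.59 to 10.5 in colonized saline and 9.06 to 9.78 in germ-free saline animals, the median was -0.23 and 34 members lay below 0. In the same contrast 11 of 11 chromaffin markers lay below 0, with a median of -0.82, as did 10 of 10 intestinal epithelium markers, with a median of -3.53 and 4 called. The part of these tissues in the members' difference was not tested.

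Between germ-free and colonized mice after saline 0 of the 41 members were called at an adjusted p under 0.05 in limma, where 6.9% of all probe sets were called. Differences lay on both sides, 26 above 0 and 15 below with a median of 0.07 against -0.04 over all genes. Germ-free arrays were all above colonized arrays for Oas1a, Parp14, Mx2, Gbp2, Gvin1, Ifitm3 and Sp100, and all below for Irf7, Trim21 and Bst2, where 11% of all probe sets were separate in the higher and 16.4% in the lower direction. At an unadjusted p under 0.05, 6 members were higher and 1 lower (24% of all probe sets). Centring each array on the median of all its rows moved the median of all genes from -0.04 to -0.21 and that of the members to -0.10, with 25 below 0. Ifitm3 was called higher without colonized saline animal 2, and Trim21 lower without colonized saline animal 3 or germ-free insulin animal 10. Without germ-free saline animal 7 the members' median was -0.02 and 23 lay below 0. All 10 intestinal epithelium markers were called higher in the germ-free saline animals, with a median of 3.59, and their part in the members' values was not tested.

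Taking both treatments, the mean difference between germ-free and colonized mice was called for 9 of the 41 members (22.0%), a share near that of all probe sets. It was lower for Irf7, Stat2, Oasl2, Ifit1, Trim21, Trim30a and Bst2 and higher for Oas2 and Ifitm3, where 17.6% of all probe sets were called, 11.5% lower and 6.14% higher. With the adipocyte marker mean as a covariate Irf7 was the 1 member called. Markers moved with this comparison too: all 10 for intestinal epithelium were called higher, 8 of 11 for chromaffin cells were called lower, and 10 of 10 for adipocytes lay above 0 with 4 called. Irf7, Ifit1 and Bst2 were called with any 1 array left out. Counts were 3 without colonized saline animal 1 or colonized insulin animal 4, 4 without colonized insulin animal 5, germ-free saline animal 8 or germ-free insulin animal 12. They were 5 without germ-free saline animal 9 or germ-free insulin animal 10 or 11, 6 without colonized saline animal 3 or germ-free saline animal 7, and 12 without colonized saline animal 2. The median of all rows, which include 5222 negative control rows, was 6.46 on the germ-free and 6.30 on the colonized arrays. Centring on it, which lowers the germ-free difference of every gene, gave 17 calls, all lower. Centring on the median of the gene probe sets gave 3 lower and 2 higher, and a second quantile normalization 8 lower and 1 higher. The shares of all probe sets called under these settings are not given here, so the counts are not set against the background. The mean insulin difference over both colonization states was called for Trim21, -0.65 ± 0.12 (SE; adjusted p = 0.0389), and Gvin1, -0.66 ± 0.11 (SE; adjusted p = 0.0247), both lower, where 0.419% of all probe sets were called and 0.163% lower. The Trim21 call was lost without colonized saline animal 1, colonized insulin animal 4, 5 or 6, germ-free saline animal 7, 8 or 9 or germ-free insulin animal 11. The Gvin1 call was lost without colonized insulin animal 4 or 5, germ-free saline animal 9 or germ-free insulin animal 10 or 11.

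**Figure D3:**
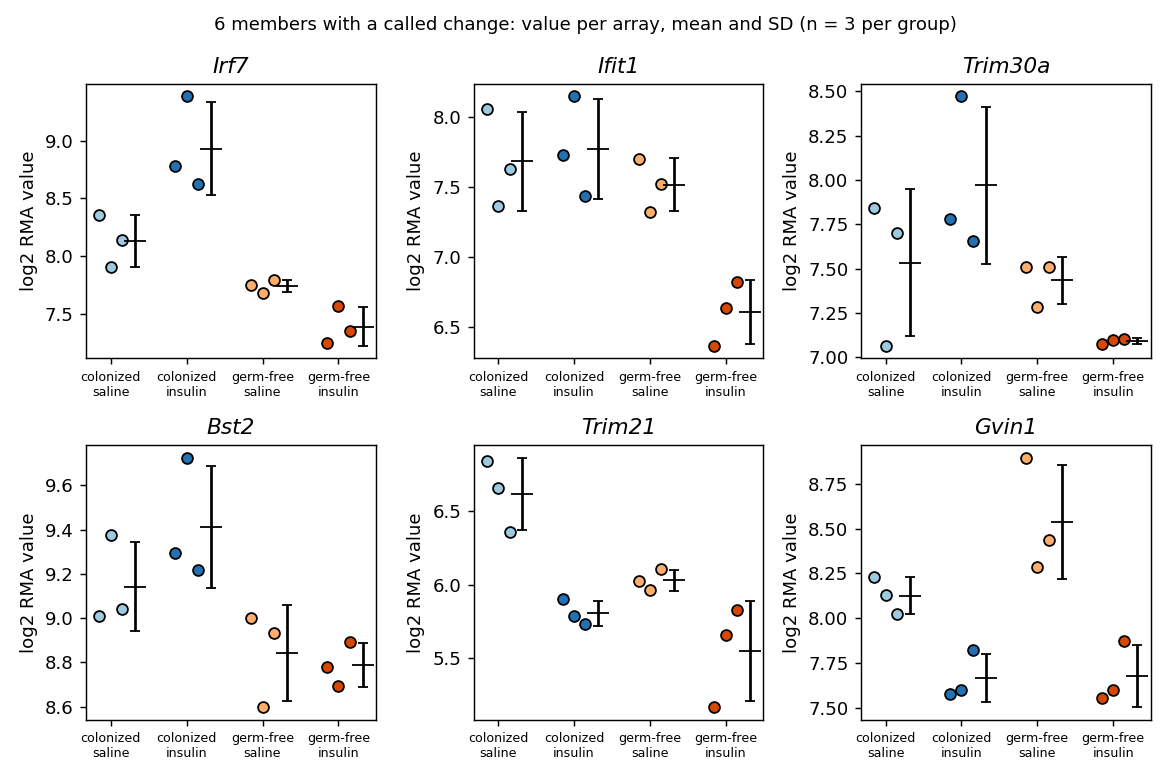
Log2 values of 6 members with a called difference, 1 point per array in each of the 4 groups, with the group mean and SD (n = 3) beside the points; each panel has its own vertical scale, which does not start at 0. Irf7 is highest in colonized insulin animals and lowest in germ-free insulin animals, and Gvin1 is lower after insulin in both colonization states.

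The transcription factors were led by Irf7, which carries the interferon signal forward by inducing further type I interferon genes. Irf7 read 8.35, 7.90 and 8.14 in the colonized saline animals, 8.78, 9.39 and 8.62 in the colonized insulin animals, 7.75, 7.68 and 7.79 in the germ-free saline animals and 7.24, 7.57 and 7.35 in the germ-free insulin animals. All 6 colonized arrays were above all 6 germ-free arrays, and insulin arrays were above saline arrays in colonized mice and below them in germ-free mice, with no overlap in either. The group means were 8.13 ± 0.22, 8.93 ± 0.40, 7.74 ± 0.06 and 7.39 ± 0.17 (SD, n = 3). The germ-free difference was -1.54 ± 0.18 (SE; adjusted p = 0.00192) after insulin, -0.39 ± 0.18 (SE; adjusted p = 0.215) after saline and -0.97 ± 0.13 (SE; adjusted p = 0.000689) over both. It was called over both treatments under each alternative run, and after insulin under each but the adipocyte covariate, where it was -1.16 with an adjusted p of 0.0818. Stat2, a subunit of the factor that binds the response element, read 8.90, 8.36 and 8.63 in the colonized saline animals, 8.52, 8.77 and 8.41 in the colonized insulin animals, 8.47, 8.16 and 8.52 in the germ-free saline animals and 8.10, 8.10 and 8.00 in the germ-free insulin animals. The germ-free insulin arrays were the lowest 3 of the 12 and lay within a range of 0.11, while the other groups overlapped. Its germ-free difference was -0.50 ± 0.15 (SE; adjusted p = 0.0662) after insulin and -0.37 ± 0.11 (SE; adjusted p = 0.0325) over both treatments. The latter call was kept without colonized saline animal 2, colonized insulin animal 6 or germ-free saline animal 9 and lost without any other 1 array, with the adipocyte covariate (-0.15) and with centring on gene probe sets. Irf9, the DNA-binding subunit of the same complex, differed by -0.21 ± 0.16 (SE; adjusted p = 0.484) after insulin. Irf1, a factor induced mainly by interferon gamma, differed by -0.52 ± 0.18 (SE; adjusted p = 0.31) with insulin in colonized mice and by 0.09 ± 0.18 (SE; adjusted p = 0.835) between colonization states after insulin, on the other side of 0 from Irf7.

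Sensor genes encode proteins that bind foreign RNA or DNA. All 5 (Ifih1, Ddx58, Dhx58, Zbp1 and Eif2ak2) were above 0 for insulin in colonized mice, with a median of 0.35, and below 0 in germ-free mice, with a median of -0.17, and 0 passed the test in either. They kept those signs under a second quantile normalization and both kinds of median centring, but with the adipocyte covariate 2 of 5 lay above 0 in germ-free mice. Without colonized saline animal 2 all 5 were still above 0 in colonized mice, with a median of 0.19. Dhx58, a partner of the RNA helicases without a signalling domain of its own, read 6.93, 5.86 and 6.51 in the colonized saline animals, 7.31, 7.74 and 6.58 in the colonized insulin animals, 6.59, 6.46 and 6.65 in the germ-free saline animals and 6.33, 6.36 and 6.67 in the germ-free insulin animals. Colonized saline animal 2 was lowest and colonized insulin animals 4 and 5 highest, and in both colonized groups the animals spread by more than 1, while the 6 germ-free arrays lay between 6.33 and 6.67. The insulin difference was 0.78 ± 0.29 (SE; adjusted p = 0.342) in colonized mice and -0.11 ± 0.29 (SE; adjusted p = 0.981) in germ-free mice. Eif2ak2, the kinase PKR that stops translation on binding double-stranded RNA, read 9.17, 8.51 and 8.86 in the colonized saline animals, 9.10, 9.38 and 9.10 in the colonized insulin animals, 9.04, 9.00 and 9.05 in the germ-free saline animals and 8.92, 9.04 and 9.02 in the germ-free insulin animals. Outside the colonized saline group its values lay between 8.92 and 9.38, and colonized saline animal 2 was the lowest of the 12. Its germ-free difference after insulin was -0.21 ± 0.15 (SE; adjusted p = 0.462). The helicase genes Ddx58 (RIG-I) and Ifih1 (MDA5) differed by -0.55 ± 0.18 (SE; adjusted p = 0.0791) and -0.23 ± 0.15 (SE; adjusted p = 0.416) in that comparison, and Zbp1, which binds left-handed nucleic acid, by -0.20 ± 0.12 (SE; adjusted p = 0.37).

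The OAS family makes the short adenylate chains that switch on the RNA-cutting enzyme RNase L, although not every OAS-like protein has that activity. Its members were called in both directions between colonization states. Oas2 read 5.09, 5.53 and 5.82 in the colonized saline animals, 5.16, 5.08 and 5.41 in the colonized insulin animals, 6.17, 5.61 and 5.75 in the germ-free saline animals and 5.88, 5.58 and 5.81 in the germ-free insulin animals, and all germ-free insulin arrays were above all colonized insulin arrays. Oas2 was higher in germ-free mice over both treatments, with a difference of 0.45 ± 0.14 (SE; adjusted p = 0.0381). The call was lost under 5 of 10 other settings and 7 of 12 left-out arrays, namely colonized saline animal 1, colonized insulin animals 4 and 5, germ-free saline animals 7 and 9 and germ-free insulin animals 10 and 12. Its values lie near the negative control medians, which were themselves higher on the germ-free arrays (5.42 against 4.75), and the part of that difference was tested only by the scalings, of which a second quantile normalization and centring on all rows lost the call. Oasl2 read 8.86, 8.94 and 8.24 in the colonized saline animals, 9.03, 8.78 and 8.49 in the colonized insulin animals, 8.73, 8.16 and 8.10 in the germ-free saline animals and 8.12, 7.94 and 8.05 in the germ-free insulin animals. Its germ-free insulin arrays were all below its colonized insulin arrays, and over both treatments it was lower in germ-free mice, with a difference of -0.54 ± 0.15 (SE; adjusted p = 0.0283). That call was lost with both covariates, with centring on gene probe sets, and without colonized saline animal 1, colonized insulin animal 4 or 5, germ-free saline animal 8 or 9 or germ-free insulin animal 11 or 12. Oas1a differed by 0.42 ± 0.14 (SE; adjusted p = 0.0823) between germ-free and colonized mice after saline and by -0.45 ± 0.14 (SE; adjusted p = 0.276) with insulin in germ-free mice, without a call. Oas3 and Oasl1 stayed at or near the level of the negative control rows.

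IFIT proteins bind viral RNA and block its translation. All 3 were lower after insulin in germ-free mice, with a median of -0.57, and lower in germ-free than in colonized mice after insulin, with a median of -0.77, of which Ifit1 passed the test in the latter. Ifit1 read 8.06, 7.36 and 7.62 in the colonized saline animals, 7.73, 8.15 and 7.44 in the colonized insulin animals, 7.70, 7.32 and 7.52 in the germ-free saline animals and 6.37, 6.64 and 6.82 in the germ-free insulin animals. The 3 germ-free insulin arrays were the lowest of the 12, at 6.82 or less against 7.32 or more, and the other 3 groups overlapped. The germ-free difference after insulin was -1.16 ± 0.21 (SE; adjusted p = 0.00795), and that after saline -0.17 ± 0.21 (SE; adjusted p = 0.68). The former was -0.65 with the adipocyte covariate (adjusted p = 0.292). Insulin against saline gave -0.91 ± 0.21 (SE; adjusted p = 0.12) in germ-free and 0.09 ± 0.21 (SE; adjusted p = 0.891) in colonized mice. Ifit3 read 8.98, 8.78 and 8.78 in the colonized saline animals, 9.10, 9.46 and 8.59 in the colonized insulin animals, 9.33, 8.36 and 8.86 in the germ-free saline animals and 8.09, 8.41 and 8.34 in the germ-free insulin animals. The germ-free insulin arrays were again below all colonized insulin arrays, while germ-free saline animal 8 fell among them, and the difference was -0.77 ± 0.24 (SE; adjusted p = 0.0716). Ifit2 differed with insulin by -0.42 ± 0.16 (SE; adjusted p = 0.355) in colonized and -0.40 ± 0.16 (SE; adjusted p = 0.525) in germ-free mice, lower in both.

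Genes of ISG15 conjugation, ubiquitin and ADP-ribose transfer formed a group of 9. After insulin in germ-free mice 8 of 9 were below 0, with a median of -0.34, and 7 of 9 had separate groups in that direction, where 10.1% of all probe sets did, but 0 were called. Usp18, the protease that removes ISG15 and restrains the interferon receptor, read 8.20, 7.11 and 7.47 in the colonized saline animals, 8.30, 8.44 and 7.45 in the colonized insulin animals, 7.80, 7.44 and 7.64 in the germ-free saline animals and 7.03, 7.26 and 7.21 in the germ-free insulin animals. Colonized insulin animals 4 and 5 and colonized saline animal 1 were high, and the germ-free insulin arrays were lower than every colonized insulin array. The germ-free difference after insulin was -0.89 ± 0.28 (SE; adjusted p = 0.073), and with the adipocyte covariate it turned to 0.0486 (adjusted p = 0.951). Trim30a, a TRIM family protein known as a brake on inflammatory signalling, read 7.84, 7.06 and 7.70 in the colonized saline animals, 7.78, 8.47 and 7.65 in the colonized insulin animals, 7.51, 7.28 and 7.51 in the germ-free saline animals and 7.07, 7.10 and 7.11 in the germ-free insulin animals. Its germ-free insulin values lay within 0.04 of each other and below all others except colonized saline animal 2, which was lower still. The difference after insulin was -0.88 ± 0.22 (SE; adjusted p = 0.0328), or -0.37 with the adipocyte covariate (adjusted p = 0.595). Over both treatments it was -0.49 ± 0.16 (SE; adjusted p = 0.0491), a call kept without colonized saline animal 2 or colonized insulin animal 6 and lost without any other 1 array, with the adipocyte covariate and with centring on gene probe sets. Trim21, the receptor for antibody bound to virus inside the cell, read 6.85, 6.66 and 6.36 in the colonized saline animals, 5.90, 5.78 and 5.73 in the colonized insulin animals, 6.02, 5.96 and 6.10 in the germ-free saline animals and 5.16, 5.66 and 5.82 in the germ-free insulin animals. Colonized saline arrays were the highest 3 of the 12, above colonized insulin and germ-free saline arrays alike, and germ-free insulin animal 10 was the lowest and below its array's negative control median. Trim21 differed by -0.82 ± 0.17 (SE; adjusted p = 0.0944) with insulin in colonized mice, by -0.59 ± 0.17 (SE; adjusted p = 0.0547) between germ-free and colonized mice after saline, and by -0.42 ± 0.12 (SE; adjusted p = 0.0278) over both treatments, the last of which was called. That call was lost with both covariates, with centring on gene probe sets, and without colonized saline animal 1, colonized insulin animal 4 or 5, germ-free saline animal 7 or 8 or both saline arrays that stood apart. Trim25, the ligase that activates RIG-I, read 9.91, 9.42 and 9.94 in the colonized saline animals, 9.79, 9.77 and 9.91 in the colonized insulin animals, 9.90, 9.95 and 9.95 in the germ-free saline animals and 9.81, 10.03 and 10.03 in the germ-free insulin animals. All 12 arrays but colonized saline animal 2 lay within 0.3 of each other, and the insulin difference was 0.07 ± 0.14 (SE; adjusted p = 0.873) in colonized and 0.03 ± 0.14 (SE; adjusted p = 0.992) in germ-free mice. Isg15 itself, the ubiquitin-like protein, read 5.09, 5.30 and 4.78 in the colonized saline animals, 5.76, 5.67 and 5.18 in the colonized insulin animals, 5.63, 5.17 and 5.37 in the germ-free saline animals and 5.52, 5.11 and 5.20 in the germ-free insulin animals, near the negative control level, and differed by 0.48 ± 0.19 (SE; adjusted p = 0.35) with insulin in colonized mice. Parp9 and Parp14, ADP-ribosyl transferases that act in interferon signalling, differed by -0.46 ± 0.15 (SE; adjusted p = 0.322) and -0.50 ± 0.14 (SE; adjusted p = 0.226) with insulin in germ-free mice. Dtx3l, the ubiquitin ligase that pairs with PARP9, differed by -0.28 ± 0.16 (SE; adjusted p = 0.73) there, and Herc6, a ligase that attaches ISG15 in mice, by -0.26 ± 0.16 (SE; adjusted p = 0.754).

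Interferon-induced GTPases attack the vacuoles and capsids of microbes inside the cell, and many of them respond strongly to interferon gamma. Between colonization states 0 of the 7 were called. All 7 were above 0 in germ-free against colonized mice after saline, with a median of 0.35, except that 2 of 7 turned below 0 with centring on all rows and 1 with a second quantile normalization. All 7 were below 0 for insulin in germ-free mice under each of those scalings, with a median of -0.49. Gvin1 read 8.23, 8.13 and 8.02 in the colonized saline animals, 7.58, 7.60 and 7.82 in the colonized insulin animals, 8.90, 8.29 and 8.43 in the germ-free saline animals and 7.56, 7.60 and 7.87 in the germ-free insulin animals. Insulin arrays were below saline arrays in both colonization states, and germ-free saline arrays were above colonized saline arrays. Igtp, also called Irgm3, read 7.08, 7.06 and 6.79 in the colonized saline animals, 6.96, 6.85 and 6.80 in the colonized insulin animals, 8.31, 7.23 and 7.04 in the germ-free saline animals and 6.62, 6.73 and 6.95 in the germ-free insulin animals. Germ-free saline animal 7 stood more than 1 above every other array, and Igtp differed by -0.76 ± 0.26 (SE; adjusted p = 0.368) with insulin in germ-free mice and 0.55 ± 0.26 (SE; adjusted p = 0.21) after saline, or 0.16 without animal 7. Gbp2, a guanylate-binding protein, read 7.45, 7.32 and 7.31 in the colonized saline animals, 7.17, 7.32 and 7.45 in the colonized insulin animals, 8.38, 7.48 and 7.73 in the germ-free saline animals and 7.07, 6.93 and 7.38 in the germ-free insulin animals. Animal 7 was again highest, followed by animals 9 and 8, and the differences were -0.74 ± 0.20 (SE; adjusted p = 0.203) and 0.50 ± 0.20 (SE; adjusted p = 0.146), the latter 0.24 without animal 7. Irgm1, a regulator of autophagy and of the other IRG proteins, read 8.92, 8.06 and 8.71 in the colonized saline animals, 8.52, 8.82 and 8.48 in the colonized insulin animals, 9.02, 8.46 and 8.85 in the germ-free saline animals and 8.25, 8.61 and 8.29 in the germ-free insulin animals, with all 4 groups overlapping and an insulin difference of -0.39 ± 0.21 (SE; adjusted p = 0.703) in germ-free mice. Without animal 7, 6 of 7 GTPases were below 0 for insulin in germ-free mice, with a median of -0.37, and 5 of 7 above 0 after saline, with a median of 0.16. The intestinal epithelium marker mean was 9.34 in animal 7, 8.29 in animal 9 and 7.39 in animal 8. The hepatocyte marker mean had the same order, at 10.1, 8.97 and 8.31. Among the 7 GTPases, Gbp2, Gvin1, Irgm1 and Mx1 had that order, and Igtp, Gbp3 and Mx2 did not. Iigp1, a related GTPase outside the 42, read 8.10, 7.29 and 6.61 in animals 7, 9 and 8. Its germ-free difference was 1.22 ± 0.36 (SE; adjusted p = 0.0616) after saline and its insulin difference -1.28 ± 0.36 (SE; adjusted p = 0.226) in germ-free mice. The part of intestinal or hepatocyte RNA in these values was not tested.

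Among the membrane and other antiviral genes, Bst2 and Ifitm3 moved in opposite directions between colonization states. Bst2, the tether that holds budding virions on the cell, read 9.01, 9.38 and 9.04 in the colonized saline animals, 9.29, 9.73 and 9.22 in the colonized insulin animals, 9.00, 8.60 and 8.93 in the germ-free saline animals and 8.78, 8.69 and 8.89 in the germ-free insulin animals. Every germ-free array was below every colonized array, narrowly after saline (9.00 against 9.01), and colonized insulin animal 5 was highest. Bst2 was lower in germ-free mice, with a difference of -0.62 ± 0.16 (SE; adjusted p = 0.035) after insulin and -0.46 ± 0.11 (SE; adjusted p = 0.0158) over both treatments. Bst2 is also a marker of plasmacytoid dendritic cells, the main makers of type I interferon, and of the 4 other markers of that cell measured 0 were called in this comparison. Of these, Siglech was above the negative control median on 3 of the 12 arrays, so its lack of a call says little about these cells. Ifitm3, which blocks fusion of virions in endosomes, read 9.85, 10.34 and 9.89 in the colonized saline animals, 10.00, 10.32 and 10.10 in the colonized insulin animals, 10.45, 10.45 and 10.52 in the germ-free saline animals and 10.35, 10.30 and 10.31 in the germ-free insulin animals. The germ-free saline arrays were the highest of the 12 and lay within 0.07 of each other. Over both treatments Ifitm3 was higher in germ-free mice, with a difference of 0.31 ± 0.09 (SE; adjusted p = 0.0387). The call was kept without colonized saline animal 2 or colonized insulin animal 5 and lost without any other 1 array, with centring on all rows and with both covariates. The other 6, Rsad2 (viperin), Rtp4, Cmpk2, Ifi35, Xaf1 and Sp100, were not called in any comparison, and Ifi35 and Cmpk2 differed by -0.36 ± 0.11 (SE; adjusted p = 0.062) and -0.38 ± 0.16 (SE; adjusted p = 0.19) between colonization states after insulin.

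**Figure D4:**
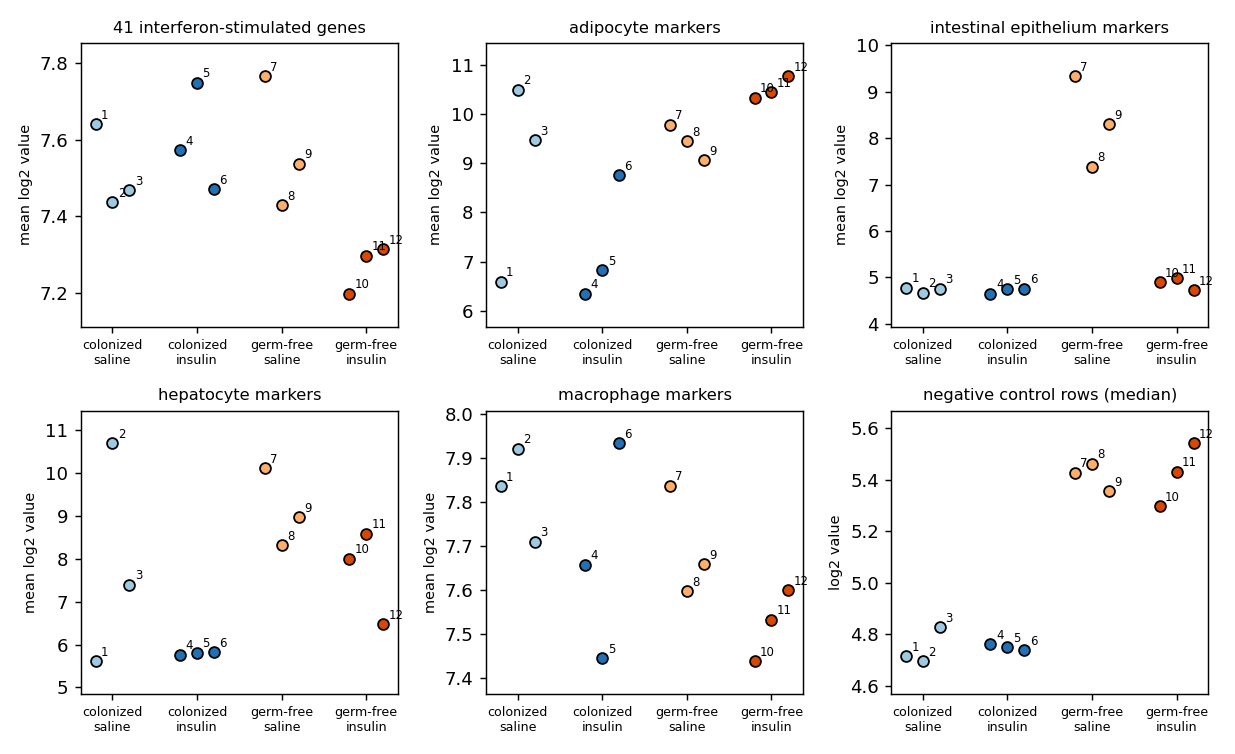
Mean log2 value of the 41 members and of 4 marker lists, and the median of the negative control rows, by array; points are single animals with their number, each panel has its own vertical scale, and no scale starts at 0. The 3 germ-free insulin animals have the lowest member means (7.20 to 7.31), intestinal markers are high in germ-free saline animals alone, and the negative control median is higher on all 6 germ-free arrays.

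The other steps of the pathway were measured as well. Of 10 interferon genes 0 were called in any comparison, with 1 higher at an unadjusted p under 0.05 between colonization states after insulin. Ifnb1, the first interferon made in many cells, read 5.19, 4.73 and 5.25 in the colonized saline animals, 5.12, 4.83 and 4.95 in the colonized insulin animals, 5.34, 5.26 and 4.87 in the germ-free saline animals and 5.04, 4.97 and 5.15 in the germ-free insulin animals. Ifnb1 was above the negative control median on 6 of the 12 arrays and not on any germ-free array. Ifng, Ifna4 and Ifnk were not above that median on any array. Of 9 measured receptor chains and Janus kinases 0 were called in the insulin comparisons or in either comparison of germ-free with colonized mice, with 1 lower at an unadjusted p under 0.05 after insulin. Ifnar1 and Ifnar2, the type I receptor chains, differed by -0.10 ± 0.10 (SE; adjusted p = 0.642) and 0.13 ± 0.09 (SE; adjusted p = 0.477) after insulin, and Ifngr1 and Ifngr2, the interferon gamma receptor chains, by 0.18 ± 0.12 (SE; adjusted p = 0.434) and -0.02 ± 0.12 (SE; adjusted p = 0.956). Jak1, a kinase both receptors use, was lower in germ-free mice over both treatments, with a difference of -0.24 ± 0.07 (SE; adjusted p = 0.035). Among 12 genes of upstream sensing, Mavs, the mitochondrial adaptor of the RNA helicases, was lower in germ-free mice after saline, with a difference of -0.45 ± 0.11 (SE; adjusted p = 0.0362), and Irf3, the factor it activates, differed by -0.06 ± 0.11 (SE; adjusted p = 0.789). Among 9 brakes on interferon signalling, Adar, an RNA editor that hides self RNA from the sensors, and Ptpn6, a phosphatase, were lower in germ-free mice after insulin, with differences of -0.64 ± 0.15 (SE; adjusted p = 0.0236) and -0.55 ± 0.12 (SE; adjusted p = 0.018). Ptpn6 was also lower after saline, and Ptpn2, a phosphatase that acts on Janus kinases, was higher there by 0.41 ± 0.10 (SE; adjusted p = 0.035). Ptpn6 read 5.48, 5.51 and 5.51 in the germ-free insulin animals, near their negative control medians of 5.30, 5.43 and 5.54. Between germ-free and colonized mice, 17.6% of all probe sets were called over both treatments, 6.9% after saline and 7.77% after insulin.

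A second list of 40 interferon-stimulated genes outside the 42, 33 of them measured, gave 26 below 0 for insulin in germ-free mice, with a median of -0.17, and 22 below 0 for germ-free against colonized mice after insulin, with a median of -0.12. The largest differences in the latter were Ifi27l2a at 1.21 ± 0.59 (SE; adjusted p = 0.25) and Cxcl9, an interferon gamma-induced chemokine, at 1.15 ± 0.47 (SE; adjusted p = 0.166), neither called. In it 3 of 33 were called lower and 0 higher, where 5.15% of all probe sets were called lower: Isg20, an RNA exonuclease, at -0.75 ± 0.21 (SE; adjusted p = 0.0448), Tor3a at -0.65 ± 0.16 (SE; adjusted p = 0.0289) and Parp10 at -0.48 ± 0.12 (SE; adjusted p = 0.0322). Parp10 is named as the third call, after its values were seen. For insulin in germ-free mice 0 of the 33 were called and 4 were lower at an unadjusted p under 0.05. Markers of macrophages, cells that make many of these transcripts, gave 7 of 9 below 0 and 1 called in germ-free against colonized mice after insulin. Their mean ran from 7.44 to 7.60 in germ-free insulin and 7.45 to 7.93 in colonized insulin animals. With that mean as a covariate, 8 of the 41 members were called lower after insulin and 0 higher. The share of all probe sets called with it is not given here, so this count is not a result about the members. Lymphocyte markers had a mean between 5.43 and 5.67 on all 12 arrays.

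The 5 genes outside the 42 whose pattern over the 12 arrays was most like the mean of the centred members were Ace (Pearson r 0.90, Spearman rho 0.89), Ifit3b (0.89, 0.86), Olfr229 (0.87, 0.84), Cyp4f14 (0.86, 0.84) and Apobec1 (0.86, 0.85). The mean of Olfr229, 3.33, was under the negative control medians. These are descriptions over 12 arrays that share their tissue content. Ifit3b is a near copy of Ifit3, and the 2 probe sets may share transcripts.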

How the data were processed

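Adrenal medulla RNA of 12 mice was hybridised to Affymetrix arrays, 1 per animal, in 4 groups of 3 taken from the labels. The deposited table holds log2 values, and RMA and limma are named, without versions, per the submitters' processing notes. Whether the 12 arrays were normalized together was not given in the sources used here. Of 28846 rows, 19572 are probe sets with 1 gene symbol by the platform annotation (19505 genes), and their values were used as deposited.

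Group means were fitted on all 12 arrays with limma 3.58.1 in R 4.3.3 (lmFit, eBayes), with 7 contrasts and Benjamini-Hochberg adjustment over 19572 probe sets. A gene was called at an adjusted p under 0.05, and errors beside differences are standard errors. The fit was tested on simulated data. Groups were separate where their ranges did not overlap. The members and lists were chosen with earlier results of these data known.

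All members may be named. Values in every array are given for members called in a contrast, for the 3 largest differences of each contrast other than the means, and for the member of highest mean in each role. Of the other lists, the receptor chains, Irf3 and up to 4 genes with the largest differences in the contrast described are named, and then the 5 genes of most similar pattern. The array values of Isg15 and Ifnb1 were added after they were seen.

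Alternatives were every row of the table, removal of probe sets with a mean under 7.71 (the 95th percentile of negative control means), a second quantile normalization, 1 probe set per gene, centring on the median of all rows or of gene probe sets, limma's trend and robust options, the compared groups alone, array weights, adipocyte or macrophage marker means as covariates, each array left out, and 2 saline arrays that stood apart left out. The centring on gene probe sets and the last were chosen after seeing the data.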

Additional observations from a re-analysis of the deposited data

Results flagged for a closer look

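Irf7 was higher in every colonized insulin animal than in every colonized saline animal and lower in every germ-free insulin animal than in every germ-free saline animal, but neither insulin effect was called (adjusted p = 0.136 and 0.677 in limma). The difference of the effects, germ-free minus colonized, was -1.15 ± 0.26 (SE, log2), and in limma it missed the threshold, with an adjusted p of 0.158 over all probe sets and 0.0567 to 0.578 over the alternatives. Irf7 was the 1 member of 41 with this pattern of separate groups, which 0.562% of all probe sets showed.

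The negative control rows enter the second quantile normalization and the alternatives with every row or centring on all rows. They also set the minimum below which dim probe sets are left out. Their mean median was 5.42 (log2) on the 6 germ-free arrays, above that of 4.75 on the 6 colonized arrays, with no overlap. The median of the gene probe sets was 6.81 on the germ-free and 6.88 on the colonized arrays. The part of this difference in the members' values was not tested beyond the 2 centrings and the second normalization.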

How the results depend on the processing

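No paired analysis was possible because the labels number the animals 1 to 12 with no shared numbers. No member was called in limma for insulin in colonized mice or for the difference of insulin effects under any alternative run (median 0.0232 to 0.158 and -0.469 to -0.234, the latter with the adipocyte covariate). For germ-free against colonized mice after insulin, the 4 calls became 7 without dim probe sets, 9 with a second quantile normalization (median -0.364), 15 with centring on all rows, negative control rows included (median -0.391), 2 with centring on gene probe sets, 10 with the compared groups alone, 12 with array weights, 0 with the adipocyte covariate, 8 with the macrophage covariate and 10 without the 2 saline arrays that stood apart, and 2 to 9 with 1 array left out. For insulin in germ-free mice the 1 call became 0 with every row tested, with the macrophage covariate and without the 2 saline arrays, 2 with the compared groups alone and 4 with array weights, and 0 to 2 with 1 array left out. After saline the count of 0 became 1 with every row, without dim probe sets, with the second normalization, both centrings, the trend and robust options, array weights and both covariates, and without the 2 saline arrays, and 0 to 1 with 1 array left out; the median was -0.102 with centring on all rows and -0.088 without the 2 saline arrays. The mean insulin effect kept 1 of 2 calls with every row, without dim probe sets, with centring on gene probe sets and without the 2 saline arrays, 0 with the macrophage covariate, and 0 to 2 with 1 array left out. The mean germ-free effect had 17 calls with centring on all rows (median -0.271), 5 with centring on gene probe sets, 1 with the adipocyte covariate and 3 to 12 with 1 array left out. Usp18 after insulin turned from -0.89 to 0.0486 with the adipocyte covariate. Fewer genes tested or fewer samples enter by construction. Centring on all rows also lowers every germ-free minus colonized difference by construction, and centring on gene probe sets raises it. The medians, germ-free against colonized, were 6.46 against 6.30 for all rows and 6.81 against 6.88 for gene probe sets. Otherwise the cause was not tested. Counts in this section stand without the share of all probe sets called under each setting. Signal over background limits the 19 of 41 members with a mean under 7.71, Oas3, Oasl1, Mx1, Isg15 and Trim21 the most. Leaving out dim probe sets takes the called members Ifit1, Trim30a, Trim21 and Oas2 out of the test.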
